A study of Mus musculus with 2 samples.

Results

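Mt1, Mt2 and Mt3 are the metallothionein genes followed here across the cell types of the newborn mouse dentate gyrus, 3 of the 31053 genes in the count tables. They were taken by their symbols, and were selected on their UMIs (unique molecular identifiers, each standing for 1 captured transcript) by cell type in these same 2 libraries, so their levels by cell type are a description. The fourth mouse gene of the family, Mt4, was listed but had 0 UMIs in both libraries, against limits of 0.0951 and 0.118 CPM (a gene's UMIs scaled to 1000000 UMIs in all) set by 3 counts. The KO library, made in droplets, is from mice of the genotype hGFAP-Cre;Kdm6bF/F, and the control library is from littermates labelled WT, with no statement of whether they carry the floxed allele or Cre. Dentate gyri of both were taken at postnatal day 2, and 2 animals per genotype were pooled. In the KO mice the human GFAP promoter drives Cre recombinase in radial glia, so floxed Kdm6b, which encodes an H3K27 demethylase, can be deleted there and in their progeny, both neuronal and glial, while vessels and microglia have other origins. Neither genotype has a second library, so no test between genotypes is possible, every interval below covers counting error only, and the values compare these 2 libraries.

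Metallothioneins are small cysteine-rich proteins that bind zinc and copper and take part in metal storage and in protection from oxidants. Transcription of Mt1 and Mt2 is switched on by zinc through the metal-responsive factor MTF1, which binds short metal response elements, and also by glucocorticoids. Mt3 is known as the brain form, found in neurons and astrocytes and linked to zinc in synaptic vesicles, and it responds little to metals.

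The 3 genes lie on the plus strand of mouse chromosome 8 (GRCm38), each with 3 exons. Mt3 (ENSMUSG00000031760) spans 94152607 to 94154146, Mt2 (ENSMUSG00000031762) 94172664 to 94173568 and Mt1 (ENSMUSG00000031765) 94179082 to 94180327. Gaps of 18517 and 5513 bases separate them. Their annotated transcripts share no identical stretch longer than 27 bases. An antisense gene on the minus strand, Gm45774, overlaps Mt2, and it had 11 and 5 UMIs in the control and KO libraries, against 6211 and 10294 for Mt2. The promoters are shown because the levels of Mt1 and Mt2 were more alike across cell classes than either was to Mt3. Each is 300 bases, from 250 before to 50 after the RefSeq start (GRCm38.p6), and capitals mark the core of the metal response element, searched as TGCACNC and TGCGCNC on both strands.
Mt1: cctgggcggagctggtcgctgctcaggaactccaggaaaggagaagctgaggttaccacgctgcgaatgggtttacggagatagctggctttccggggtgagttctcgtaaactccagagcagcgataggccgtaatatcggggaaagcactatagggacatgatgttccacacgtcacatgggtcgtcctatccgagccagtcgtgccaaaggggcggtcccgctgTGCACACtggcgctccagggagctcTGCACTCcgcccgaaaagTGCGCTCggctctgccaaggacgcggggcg
Mt2: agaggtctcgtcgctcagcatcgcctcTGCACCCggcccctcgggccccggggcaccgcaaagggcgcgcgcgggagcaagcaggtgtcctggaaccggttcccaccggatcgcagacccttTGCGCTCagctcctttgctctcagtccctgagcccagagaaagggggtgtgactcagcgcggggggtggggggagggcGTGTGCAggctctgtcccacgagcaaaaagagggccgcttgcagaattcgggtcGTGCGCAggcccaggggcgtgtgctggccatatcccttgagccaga
Mt3: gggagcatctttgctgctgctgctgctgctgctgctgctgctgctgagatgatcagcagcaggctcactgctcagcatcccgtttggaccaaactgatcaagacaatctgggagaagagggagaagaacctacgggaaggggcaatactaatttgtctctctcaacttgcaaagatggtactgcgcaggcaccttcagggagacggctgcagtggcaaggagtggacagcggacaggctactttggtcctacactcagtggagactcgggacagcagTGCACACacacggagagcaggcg
The Mt1 window held 3 matches, which begin at -23, 3 and 21 relative to the start. In Mt2 there were 4 matches, at -223, -128, -50 and 5. Mt3 had 1 match, at 28. For Mt1 and Mt2 the RefSeq start used here is not the gene start given above, and elements outside the windows were not searched. At least 3 matches were found in 1.97% of 32851 RefSeq promoter windows of this length, at least 4 in 0.517% and at least 1 in 25.7%, so the single match in Mt3 is a common one. The Mt3 window also holds 11 CTG repeats in a row, which 5 of these windows reach. A match describes letters only and is not a measured site.

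After filtering, 2957 control cells with 31561952 UMIs (median 7346 per cell) and 1931 KO cells with 25400395 UMIs (median 9188) remained. Clustering of both libraries gave 25 clusters, 21 of which were named by markers and formed 14 classes. In the classes used most here, all 15 ependymal markers and all 17 astrocyte markers had UMIs in their class in both libraries. Presence alone does not separate classes, since pyramidal neuron-like cells also had UMIs of all these markers. Summed in control and KO cells, ependymal markers were at 11811 and 9600 CPM in ependymal-like cells, against 20.8 and 20.4 in pyramidal neuron-like cells. Astrocyte markers were at 10537 and 9821 CPM in astrocyte-like cells, against 392 and 385. The same lists had named the clusters, so these sums are a description. Cluster 15 (led by Pter, Entpd2, Clu and Notch2), cluster 17 (led by 4933407L21Rik, Pcp4l1, Rspo3 and Krt15), cluster 21 (blood and endothelial genes) and cluster 23 (shallow cells) stayed unnamed. Kdm6b itself was at 58.3 and 56.7 CPM over all control and KO cells. In radial glia/neural stem cell-like (RG/NSC-like) cells it had 118 of 2361157 control UMIs and 26 of 1001126 KO UMIs, and whether these 3′ tags lie within the deleted part was not examined. Pyramidal neuron-like cells had 42.7 and 34.5 CPM and astrocyte-like cells 49.7 and 31.2. Kdm6b was not lower in GABAergic neuron-like cells (41.7 and 43.6 CPM) or cluster 15 (75.8 and 77.9). Ependymal-like cells had 55.2 and 51.6 CPM, with overlapping intervals. The libraries also differed in sex: 33.5% of control cells had Y-linked UMIs without Xist, against 0 KO cells. Only 6 barcodes occurred in both libraries.

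Among named classes Mt1 and Mt2 were highest in ependymal-like cells, the ciliated cells that line the ventricle, then in astrocyte-like cells. Levels are in CPM of all UMIs of a class, which for these 3′ tags are not divided by transcript length. In ependymal-like cells Mt1 stood at 6218 CPM in the control library (95% Poisson interval 6080 to 6359) and 6281 in KO cells (6175 to 6389). Mt2 there stood at 2897 CPM (2803 to 2993) and 3495 (3416 to 3576). Both values are far above those of every other named class. In these cells Mt1 ranked 6th among all genes by mean UMIs per cell in either library.

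Astrocyte-like cells came next, with Mt1 at 1939 and 1583 CPM and Mt2 at 605 and 572 CPM in the control and KO libraries. Second place for Mt2 in KO cells went to the RG/NSC-like class under 3 alternatives, at 1019 CPM with Leiden resolution 0.5, 1032 with all genes allowed among the variable genes and 1068 with no filter on cells. Microglia-like cells, the immune cells of the brain, were the third class for Mt1, at 1041 CPM (892 to 1209) and 1201 (1025 to 1398), from 42 and 24 cells. Their Mt2 was far lower, at 96.3 and 181 CPM. RG/NSC-like cells, the cells that make granule neurons and later persist as stem cells, had Mt1 at 481 and 528 CPM and Mt2 at 280 and 379 CPM. The intervals of Mt1 in microglia-like and RG/NSC-like cells did not overlap in either library.

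Below these classes the order was less firm. Granule neuron-like cells had Mt1 at 418 CPM in the control library, an interval that overlapped that of RG/NSC-like cells, and 178 in the KO library. Mural-like cells, which wrap vessels, had 302 CPM in 53 KO cells and 265 in 15 control cells. Oligodendrocyte lineage-like cells had 114 and 140 CPM. Leptomeningeal fibroblast-like (95.7 in the control library), pyramidal neuron-like (74.6 and 53.1), endothelial-like (54.2 and 57.6), intermediate progenitor-like (30.6 and 66.1), neuroblast-like (30.7 and 32.6) and GABAergic neuron-like cells (19.7 and 37.8) followed, and several of these neighbours had overlapping intervals. Cajal-Retzius cell-like cells, early-born neurons of the marginal zone, were the lowest for Mt1 (8.48 and 8.50 CPM) and Mt2 (2.54 and 2.83 CPM), each on 10 UMIs or fewer.

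Among named classes Mt3 was also highest in ependymal-like cells, at 4131 CPM (4018 to 4246) in control and 5018 (4923 to 5115) in KO cells, and second in astrocyte-like cells, at 2545 and 3001 CPM. It differed from Mt1 and Mt2 in the neurons. Granule neuron-like cells had 916 and 627 CPM, pyramidal neuron-like cells 558 and 382, and GABAergic neuron-like cells 197 and 439. RG/NSC-like cells, at 557 and 628 CPM, fell among these neurons. Endothelial-like cells, which line vessels, were the lowest of the named classes, with 15.4 and 14.8 CPM from 65 and 57 UMIs. KO microglia-like cells, at 21.7 CPM on 3 UMIs (4.48 to 63.4), could not be told apart from them, and were lowest after thinning, with 0 UMIs. Other neighbours with overlapping intervals included pyramidal neuron-like and RG/NSC-like cells in the control library, and RG/NSC-like and granule neuron-like cells in the KO library. Oligodendrocyte lineage-like cells were at 175 CPM (145 to 208) in control and 345 (266 to 440) in KO cells. Their intervals overlapped those of GABAergic neuron-like cells in both libraries and of pyramidal neuron-like cells in the KO library.

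**Figure D1:**
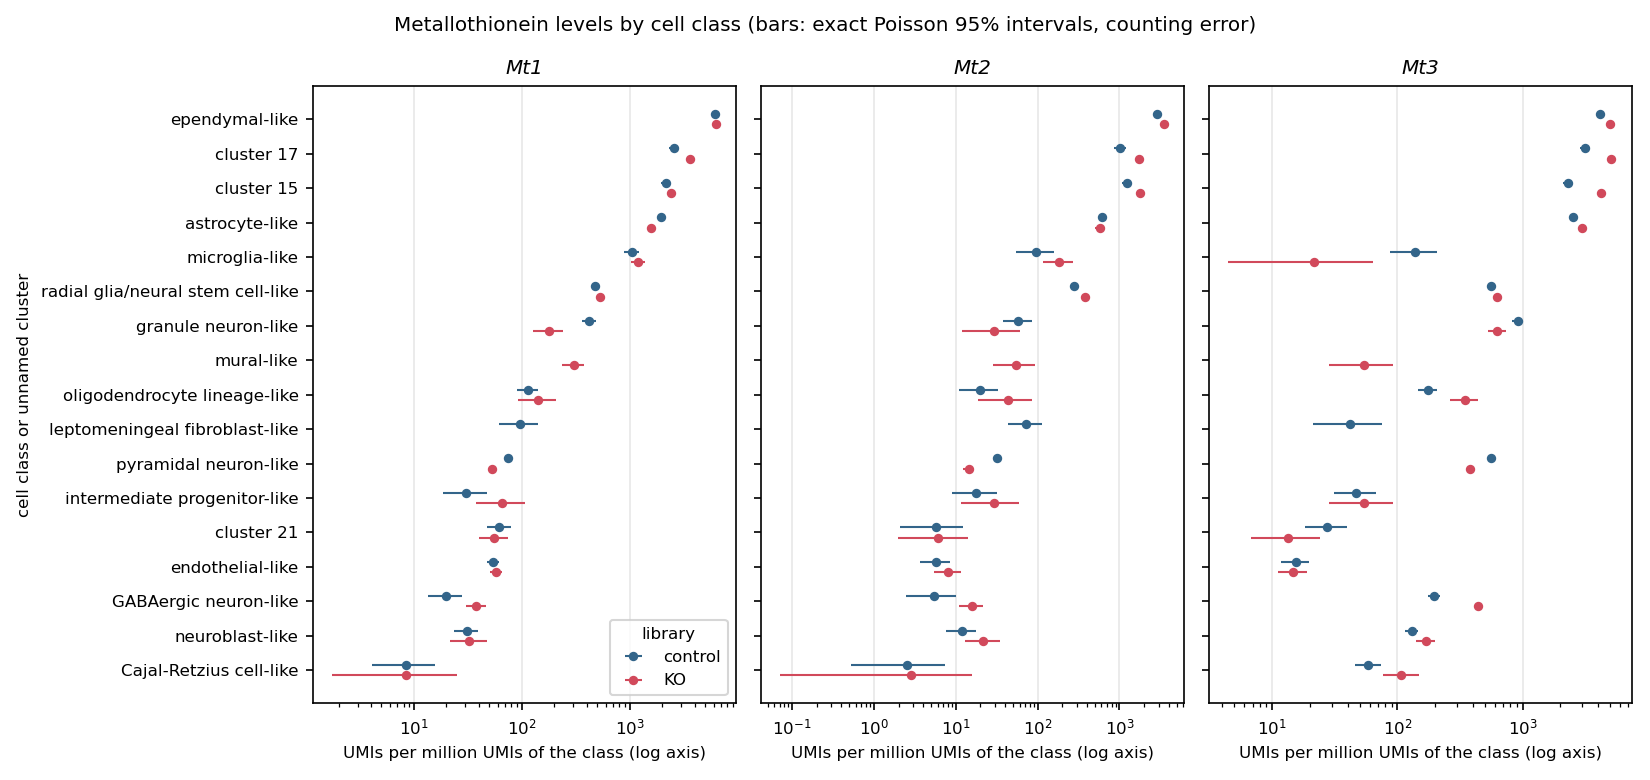
Mt1, Mt2 and Mt3 in CPM of a class (horizontal log axis) by cell class or unnamed cluster, with the control library in blue, the KO library in red and bars for exact Poisson 95% intervals. Classes with fewer than 20 cells in a library and cluster 23 are left out. Ependymal-like cells have the highest Mt1 in both libraries, at 6218 and 6281.

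The unnamed clusters 15 and 17 lay above astrocyte-like cells in Mt1 and Mt2 in both libraries, and in Mt3 except for control cluster 15. Cluster 15 had Mt1 at 2151 and 2400 CPM, Mt2 at 1227 and 1802 CPM and Mt3 at 2298 and 4214 CPM in 53 control and 109 KO cells. Cluster 17 had Mt1 at 2590 and 3632 CPM, Mt2 at 1020 and 1757 CPM and Mt3 at 3148 and 5042 CPM in 21 control and 70 KO cells. Both clusters held more cells in the KO library, and all 3 genes were higher there in both. Both also carried glial markers: the 17 astrocyte markers summed to 6572 and 5052 CPM in cluster 15 and to 6354 and 5530 in cluster 17, while the 15 ependymal markers summed to 559 and 668 and to 1922 and 2721.

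The 3 genes were mixed in different proportions by cell type. Mt3 made up 84.0% (83.2 to 84.8%, exact Clopper-Pearson) and 85.0% (84.0 to 85.9%) of metallothionein UMIs in pyramidal neuron-like cells, and 88.7% and 89.2% in GABAergic neuron-like cells. Mt1 made up 72.0% (66.7 to 76.9%) and 71.6% (66.2 to 76.6%) in endothelial-like cells and 81.6% and 85.6% in microglia-like cells. Ependymal-like cells were split more evenly, with 46.9% Mt1, 21.9% Mt2 and 31.2% Mt3 in control and 42.5%, 23.6% and 33.9% in KO cells. Neurons were thus mostly Mt3, vessels and microglia mostly Mt1, and ventricular and parenchymal glia held all 3.

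The ratio of Mt1 to Mt2 UMIs also varied by cell type. It was 2.15 (2.06 to 2.23) and 1.80 (1.75 to 1.85) in ependymal-like cells and 1.72 (1.56 to 1.89) and 1.40 (1.22 to 1.60) in RG/NSC-like cells, and 3.20 (2.98 to 3.45) and 2.77 (2.40 to 3.20) in astrocyte-like cells. In endothelial-like cells it was 9.54 (6.25 to 15.2) and 7.16 (4.90 to 10.8), and in microglia-like cells 10.8 (6.47 to 19.3) and 6.64 (4.34 to 10.6). Oligodendrocyte lineage-like cells, at 5.79 (3.26 to 11.1) and 3.25 (1.43 to 8.31), overlapped both of these classes in both libraries. In control microglia-like cells Mt3 rested on 23 UMIs in 2 cells, 21 of them in 1 cell.

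Shares of cells with a UMI depend on depth, so they were taken after each cell was thinned to 2000 UMIs. Thinning does not remove free RNA, which gives some UMIs in cells that do not express a gene, and its level was not estimated. In endothelial-like cells, the class lowest in Mt3, 1.10% of control cells and 1.75% of KO cells then had an Mt3 UMI (23.7% and 18.7% before thinning, at median depths of 21230.5 and 18287 UMIs). In pyramidal neuron-like cells the shares were 51.2% and 40.0% (81.8% and 77.8% before thinning, at median depths of 16131 and 17321). Nearly all ependymal-like cells had each gene at this depth: Mt1 in 98.7% and 100% of cells, Mt2 in 98.7% and 99.3%, and Mt3 in 100% of both. Mt1 in pyramidal neuron-like cells, at 9.84% and 7.25%, was near the 10.4% and 8.19% of endothelial-like cells. Mt1 in GABAergic neuron-like cells was at 3.47% and 6.34%. Cajal-Retzius cell-like cells, the class lowest in Mt1, had 3.05% in the control library and 0 of 30 KO cells. Mt2 in GABAergic neuron-like cells, at 1.39% and 2.82%, lay near the 1.10% and 2.92% of endothelial-like cells. With free RNA not estimated, these low counts in GABAergic neuron-like cells are not read as expression.

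**Figure D2:**
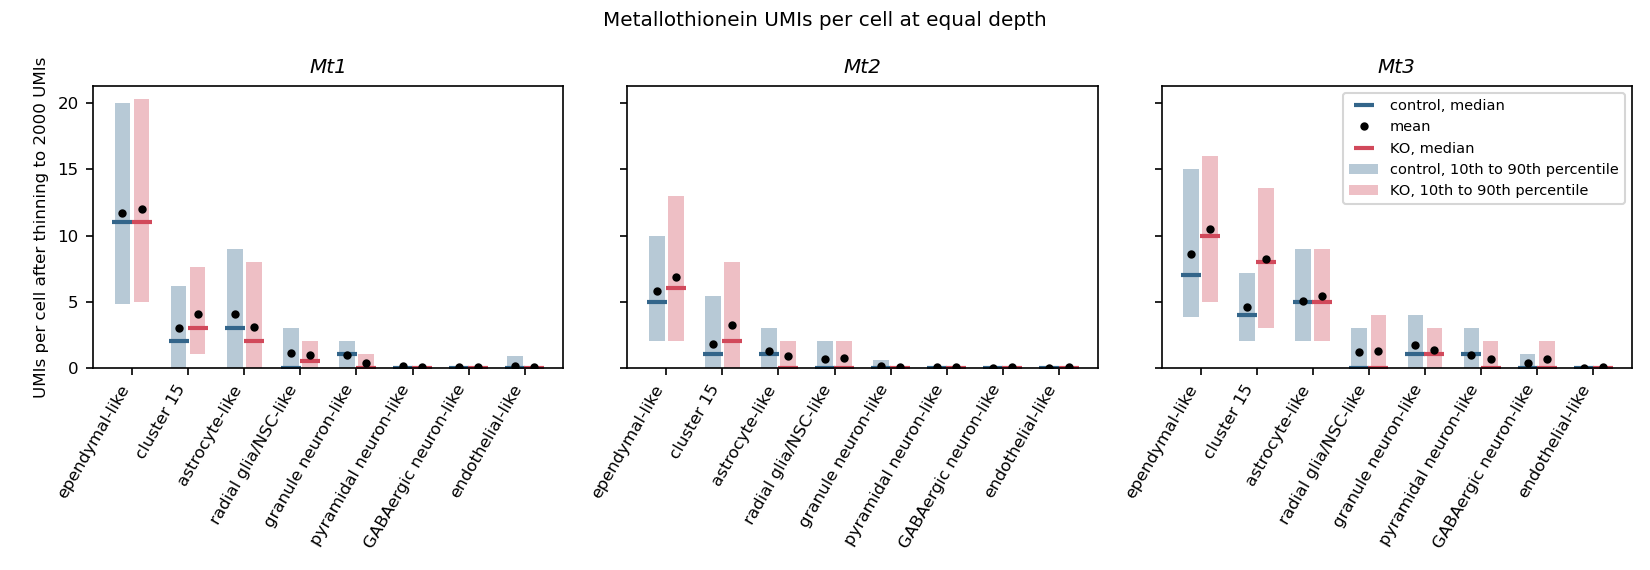
UMIs per cell of Mt1, Mt2 and Mt3 after each cell was thinned to 2000 UMIs (vertical axis), for 8 classes or clusters. Shaded bars run from the 10th to the 90th percentile of cells (control blue, KO red), dashes are medians and black points are means. The median for Mt1 in ependymal-like cells is 11 in both libraries.

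In ependymal-like and astrocyte-like cells, Mt1 and Mt2 moved together from cell to cell, and Mt3 followed them less closely. In thinned cells the correlation of Mt1 with Mt2 in ependymal-like cells was r = 0.36 (Spearman's rho 0.40) over 79 control cells and r = 0.41 (rho 0.43) over 148 KO cells, against r = -0.03 and 0.20 for Mt1 with Mt3. Astrocyte-like cells gave r = 0.41 (248 cells) and 0.40 (62 cells) for Mt1 with Mt2, and 0.14 and 0.09 for Mt1 with Mt3. RG/NSC-like cells differed from both, since Mt1 with Mt3 reached r = 0.50 (324 cells) and 0.45 (114 cells), beside 0.41 and 0.40 for Mt1 with Mt2. Cells of a class share their library, and the values are descriptions over cells, which are not replicates.

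Across classes, the gene whose level most resembled that of Mt1 was Mt2, and the reverse held. The correlation of log2(CPM + 10) over 20 points, each a class in 1 library with at least 50 cells (12 classes), was r = 0.97. The points share their libraries, and 12318 genes were compared. Next for Mt1 came Mamdc2 (0.92), Fras1 (0.92), 2610301B20Rik (0.91) and Mlc1 (0.91), the last a membrane protein of astrocytes. For Mt2 they were Mamdc2 (0.96), Nwd1 (0.95), Mlc1 (0.94) and Fras1 (0.94). The genes most like Mt3 were Dtna (0.94), which encodes alpha-dystrobrevin, Sorl1 (0.92), a sorting receptor, Clu (0.92), which encodes the chaperone clusterin, Csmd1 (0.91) and Pfn4 (0.91). Mt2 was 35th and Mt1 67th among the genes most like Mt3.

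Over all cells the metallothioneins were higher in the KO library. Mt1 was at 466 CPM in control cells and 749 in KO cells, a ratio of 1.61 (exact conditional binomial 95% interval 1.57 to 1.64). Mt2 was at 197 and 405.3 CPM, a ratio of 2.06 (2.00 to 2.13), and Mt3 at 647 and 922 CPM, a ratio of 1.43 (1.40 to 1.45). Mt1 and Mt2, 2 of the 3, passed 1.5-fold, as did 8.9% of the 16076 genes with at least 20 UMIs over all cells, while 5.18% were lower by that much.

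These ratios moved with the cells in each library. Ependymal-like cells were 2.87% of control cells and 8.23% of KO cells, and they held 52.1% and 69.8% of all Mt1 UMIs, 57.5% and 71.7% of Mt2 UMIs and 24.9% and 45.2% of Mt3 UMIs. Cluster 15 made up 1.79% of control and 5.64% of KO cells, and cluster 17 made up 0.710% and 3.63%. With every cluster weighted by its UMIs in the control library, an alternative chosen after the data were seen, the log2 ratios were -0.014 for Mt1, 0.21 for Mt2 and 0.17 for Mt3. Without ependymal-like cells they were 0.089, 0.52 and 0.12, and without these and clusters 15 and 17 all 3 turned, to -0.85, -0.80 and -0.45. The cells left still differed in mix. Astrocyte-like cells were 9.37% of all control and 3.94% of all KO cells, and RG/NSC-like cells 11.5% and 6.16%. These negative values thus combine the mix of cells with any shift within a cell type, and the part of each was not tested.

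**Figure D3:**
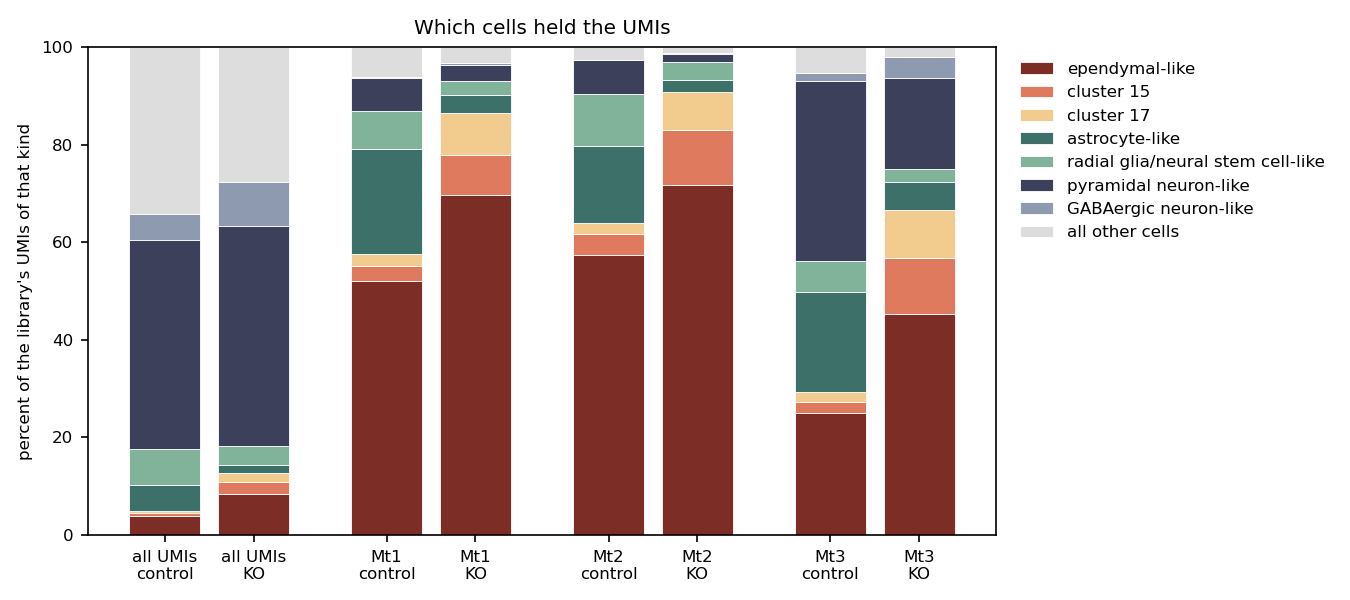
Percent of a library's UMIs (vertical axis) that lay in each group of cells, for all genes together and for Mt1, Mt2 and Mt3, with 1 stacked bar per library. Ependymal-like cells (dark red, at the base) hold 52.1% of Mt1 UMIs in control and 69.8% in KO cells, against 3.90% and 8.32% of all UMIs.

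Within ependymal-like cells the libraries were close. The log2 ratio of KO to control was 0.01 for Mt1 (ratio 0.982 to 1.04), 0.27 for Mt2 (1.16 to 1.26) and 0.28 for Mt3 (1.17 to 1.26), so 0 of 3 passed 1.5-fold, where 10.5% of 10926 genes were higher by that much and 7.44% lower. Over 12 alternatives Mt3 stayed between 0.26 and 0.35 and Mt2 between 0.25 and 0.32. The 15 ependymal markers summed to 11811 CPM in control and 9600 in KO cells, and their part in these ratios was not tested. Xist-positive cells without Y-linked UMIs gave 0.02, 0.29 and 0.33.

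In astrocyte-like cells Mt1 was lower in the KO library, by a log2 ratio of -0.29 (ratio 0.752 to 0.886), Mt2 was close (-0.08, 0.821 to 1.09) and Mt3 was higher (0.24, 1.11 to 1.25). None of the 3 passed 1.5-fold, against 11.1% of 8602 genes higher and 10.8% lower. The direction of Mt1 depended on how cells were clustered and filtered, which also changed the cells in the class. It was 0.15 with 4000 variable genes (347 control and 198 KO cells) and 0.28 under the stricter filter (319 and 144). The main setting had 277 and 76 cells. Over 13 alternatives Mt2 ran from -0.52 to 1.15, while Mt3 stayed above 0 (0.11 to 0.69). Within the control library alone, cells with Xist had Mt1 at -0.25 on the log2 scale relative to cells with Y-linked UMIs, a difference of similar size. With 2 animals in that pool, sex and animal cannot be told apart. Between Xist-positive cells without Y-linked UMIs, 105 control and 59 KO, the log2 ratio of Mt1 was -0.20 (ratio 0.787 to 0.958).

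RG/NSC-like cells, the type that hGFAP-Cre is known to target, had log2 ratios of 0.14 for Mt1 (ratio 0.989 to 1.22), 0.44 for Mt2 (1.19 to 1.54) and 0.17 for Mt3 (1.02 to 1.24), and 0 of 3 passed 1.5-fold, as 7.78% of 9888 genes did upward and 9.85% downward. The class holds 2 clusters that went different ways. In cluster 7, led by genes of mitosis such as Top2a, the ratios were 0.39, 0.77 and 0.26, while in cluster 10, led by Pdlim3, Thrsp and Tfap2c, they were -0.38, -0.11 and -0.03. The class ratios depended on the processing in both directions. With Leiden resolution 0.5 they were 1.05, 1.42 and 1.54. The class then held 336 control and 201 KO cells, against 339 and 119, so its members were not the same. Mt1 turned to -0.057 at resolution 2 (230 and 70 cells), to -0.14 after thinning and to -0.17 with each cell weighted alike. Mt2 was 0.039 after thinning, and Mt3 turned to -0.036 under the stricter filter (258 and 85 cells).

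Cluster 15 showed the largest shift in Mt3 among the glial groups with at least 50 cells per library. Mt3 was at 2298 CPM in control and 4214 in KO cells, a log2 ratio of 0.87 (ratio 1.66 to 2.02), beside 0.16 for Mt1 (1.004 to 1.24) and 0.55 for Mt2 (1.28 to 1.69). Mt3 alone passed 1.5-fold, as did 12.7% of 6314 genes there (12.9% downward). At equal depth the median cell had 4 Mt3 UMIs in control and 8 in KO cells. Median depth was 3678 and 5592 UMIs per cell, and the part of depth in the cluster's makeup was not tested.

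**Figure D4:**
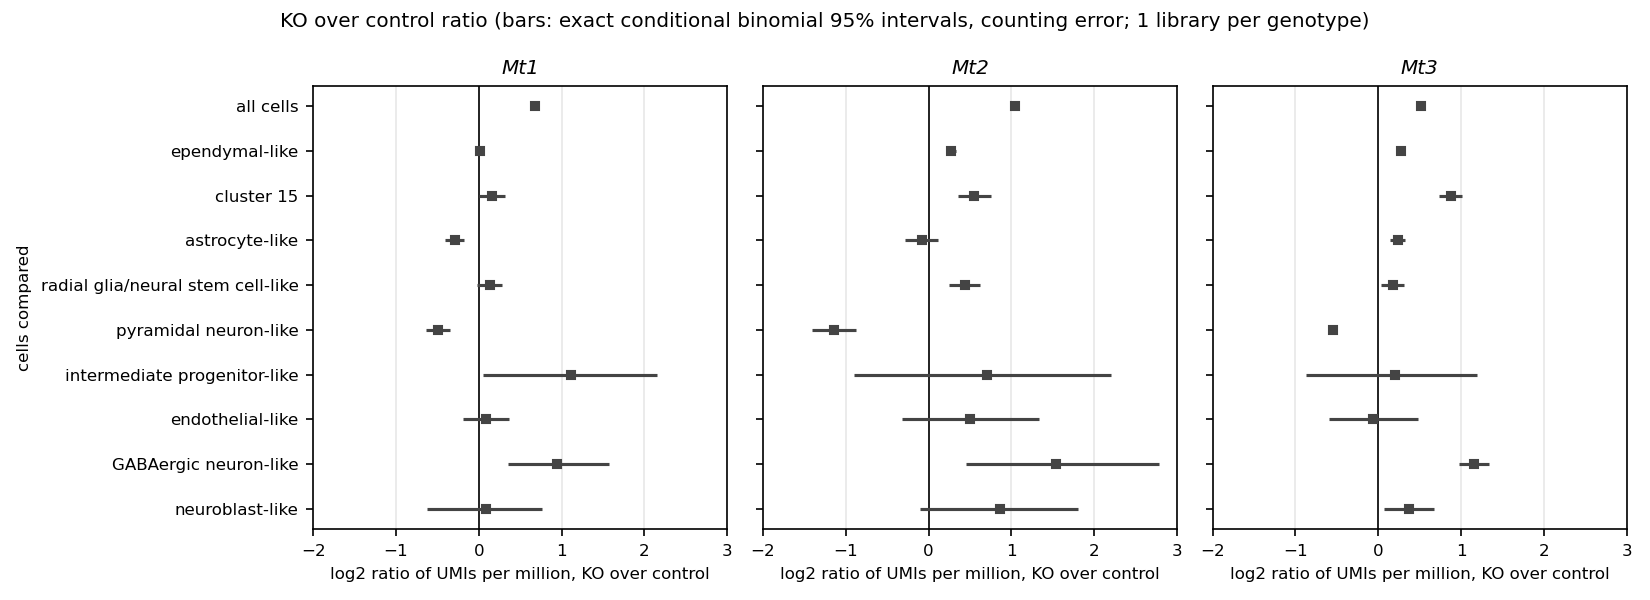
The log2 ratio of CPM, KO over control (horizontal axis), for Mt1, Mt2 and Mt3 over all cells and in each class or cluster with at least 50 cells per library. Squares are ratios and bars are exact conditional binomial 95% intervals, which cover counting error only. Mt3 lies at 1.16 in GABAergic neuron-like cells and at -0.55 in pyramidal neuron-like cells.

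In GABAergic neuron-like cells, the inhibitory neurons, Mt3 was at 197 CPM (176 to 219) in control and 439 (412 to 467) in KO cells, a log2 ratio of 1.16 (ratio 1.97 to 2.53). Only 1.13% of 9935 genes in this class had a higher ratio. All 3 genes passed 1.5-fold, as did 6.44% of genes (6.66% downward), but Mt1 (33 and 85 UMIs) and Mt2 (9 and 35 UMIs) rested on few cells: 1 KO cell held 36 Mt1 UMIs, and without the top 3 cells of each library Mt1 was at 15.9 and 17.6 CPM. Mt1 turned to -0.056 without doublet removal and to -0.72 under the stricter filter. Mt3 without its top 3 cells was still at 170 and 404 CPM, and it was higher in both clusters, by 1.14 in cluster 12 (led by Sst, Npy and Lhx6) and 0.80 in cluster 16 (led by Adarb2, Igf1 and Npas1).

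Marker sums and sex markers of these cells are given beside this result. The 17 astrocyte markers summed to 329 (control) and 280 CPM (KO) in GABAergic neuron-like cells, with 2 and 3 UMIs of the astrocyte channel Aqp4. The 15 ependymal markers summed to 18.5 and 30.3 CPM, with 3 and 13 UMIs of the ciliary factor Foxj1. Within the control library Mt3 also differed by sex marker, at 150 CPM in 64 cells with Y-linked UMIs and 255 CPM in 61 cells with Xist. KO cells with Xist were at 434 CPM, a log2 ratio of 0.76 (ratio 1.45 to 2.00) to the control cells with Xist. With 2 animals pooled per library, sex, animal and genotype cannot be fully told apart.

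Pyramidal neuron-like cells, the excitatory neurons outside the granule lineage, were lower in the KO library as a class: Mt1 by -0.49 on the log2 scale (ratio 0.643 to 0.788), Mt2 by -1.13 and Mt3 by -0.55 (558 and 382 CPM). Mt2 alone passed 1.5-fold downward, as did 7.56% of 12863 genes (5.7% upward). The class is made of clusters 0, 4, 5 and 6, and cluster 0, the one with most Mt3, held 350 of 775 control cells and 103 of 609 KO cells. Weighted by the control library's clusters, Mt1 was 0.13, Mt2 -0.88 and Mt3 -0.10. With the 4 clusters weighted alike they were 0.15, -0.19 and 0.20, and after thinning to 2000 UMIs Mt2 was -0.40.

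Mt3 in cluster 0 was 738 CPM in control and 679 in KO cells, and in cluster 4 it was 453 and 398 CPM. Cluster 5 had 209 and 188 CPM. Cluster 6, led by Cck, Sertm1 and Nts, went the other way, from 87.3 CPM to 209 CPM, a log2 ratio of 1.25 (ratio 1.93 to 2.99). Mt2 was lower in the KO library in cluster 0 (43.4 and 21.1 CPM) and cluster 4 (22.7 and 11.2 CPM), with intervals of the ratio below 1. In cluster 5 (6.48 and 13.5 CPM) and cluster 6 (9.89 and 12.2 CPM) it was higher in the KO library, on 9 to 38 UMIs and with intervals of the ratio that held 1.

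**Figure D5:**
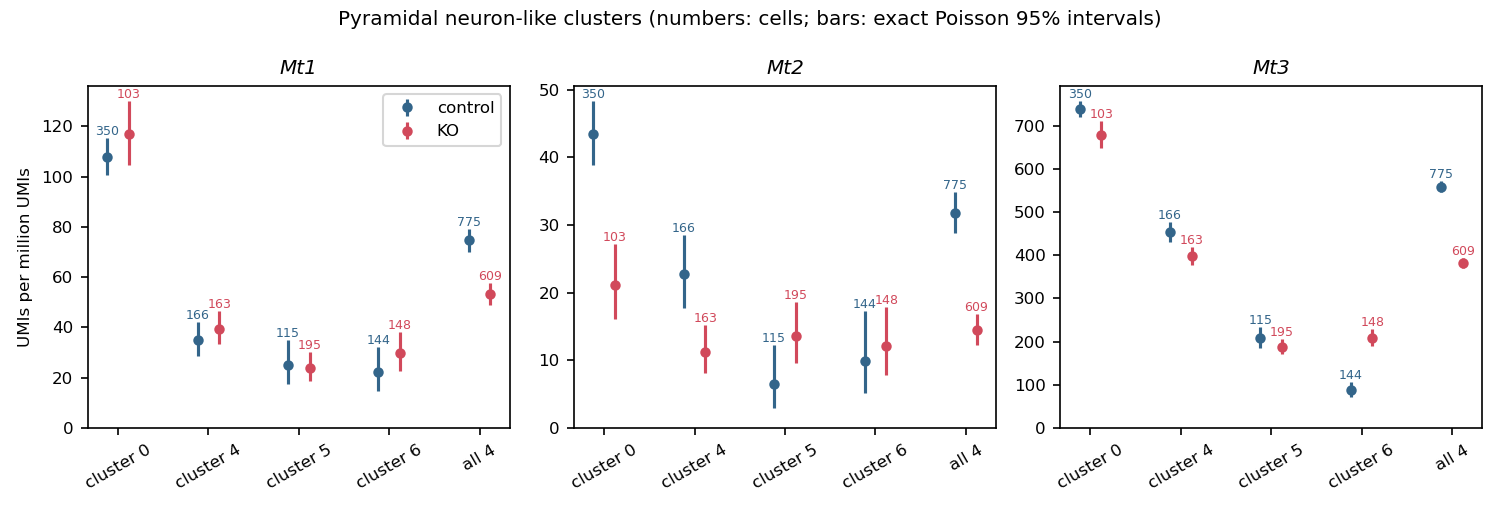
CPM (vertical axis) of Mt1, Mt2 and Mt3 in pyramidal neuron-like clusters 0, 4, 5 and 6 and in all 4 together, control in blue and KO in red, with exact Poisson 95% intervals and the number of cells above each point. Mt3 over all 4 is 558 and 382, while single clusters differ less except cluster 6, at 87.3 and 209.

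Granule neuron-like cells, the principal neurons of the dentate gyrus, numbered 56 and 31, under the 50 set for class ratios, and their values are given as a description. Mt1 had 189 UMIs in control cells (418 CPM, 361 to 482) and 42 in KO cells (178 CPM, 128 to 240). Mt3 was at 916 CPM (830 to 1009) and 627 CPM (530 to 736). At equal depth 67.3% of control cells and 29.03% of KO cells had an Mt1 UMI (80.4% and 61.3% before thinning), at median depths of 8222 and 7829 UMIs. Of 11 granule neuron markers, 11 and 8 had UMIs, with summed levels of 2980 and 1406 CPM, so the cells of the class differed between libraries in its own markers too.

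In the smaller counts of other classes, 1 of the 2 genes with at least 20 UMIs passed 1.5-fold upward in intermediate progenitor-like cells (Mt1, 19 and 16 UMIs, log2 ratio 1.12), where 9.92% of genes did (16.8% downward). In neuroblast-like cells Mt2 did (24 and 18 UMIs, 0.88), where 6.76% of genes did (9.59% downward), with a ratio interval that held 1. Mt3 there was at 130 and 169 CPM (263 and 140 UMIs), a log2 ratio of 0.38 (ratio 1.048 to 1.597). With the control library's mix of clusters it was 0.59. In cluster 2 Mt3 was at 91.4 and 189 CPM (log2 ratio 1.05), while in cluster 9 it was at 76.9 and 69.2 CPM (-0.14). Cajal-Retzius cell-like cells, with 32 KO cells and so under the 50 set for class ratios, had Mt3 at 58.5 and 108 CPM (69 and 38 UMIs). Endothelial-like cells, which hGFAP-Cre is not known to reach, had 0.09 for Mt1 (ratio 0.879 to 1.28), 0.49 for Mt2 and -0.056 for Mt3, and 0 of 3 passed, against 4.78% of genes upward and 6.01% downward.

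Genes of zinc sensing and transport were taken as the pathway around the metallothioneins. Over all cells 22 of 25 had at least 20 UMIs, and 3 were higher and 1 lower by 1.5-fold, beside 8.9% and 5.18% of all genes. At 2-fold 0 were higher and 1 lower, beside 2.97% and 1.85% of all genes. Their median log2 ratio was 0.066 against 0.0055 for all genes. Mtf1, the metal-responsive factor, was at 24.1 CPM in control and 28.3 in KO cells, and Slc30a1, a zinc exporter of the cell surface, at 21.5 and 24.7 CPM. Slc39a12, a zinc importer of brain, was at 4.69 and 8.39 CPM. The 4 members with most UMIs, Slc39a10, Slc39a6, Slc30a9 and Slc39a8, had log2 ratios of 0.02, 0.02, -0.12 and 0.29. Mtf1 was at 66.6 and 71.0 CPM in ependymal-like cells, against 23.9 and 28.9 in astrocyte-like cells and 21.0 and 25.0 in pyramidal neuron-like cells.

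In astrocyte-like cells 17 zinc genes were measured, with 7 higher and 2 lower, beside 11.1% and 10.8% of all genes there. At 2-fold 1 zinc gene was higher and 0 lower, beside 2.69% and 3.71% of all genes. The median of the zinc genes was 0.33, beside -0.0046 for all genes. The 4 with most UMIs were Slc39a7 (0.03), Slc39a1 (1.08, from 79.2 to 167 CPM), Slc30a9 (-0.34) and Slc39a6 (0.44). In ependymal-like cells 5 of 19 were higher and 1 lower, beside 10.5% and 7.44% of all genes. At 2-fold 1 zinc gene was higher and 0 lower there, beside 3.31% and 1.86% of all genes. The median of the zinc genes was 0.089, and Slc39a1 was at 35.7 and 64.9 CPM there. The metallothioneins themselves stayed within 1.5-fold in both classes.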

How the data were processed

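The deposited values are raw UMI counts of each gene in each barcode, as whole numbers, and the submitters' processing notes name Cell Ranger 3.0.2, Seurat 3 and mm10 with no role stated. Papain-dissociated cells went into a 10x 3′ assay aimed at 2500 cells per genotype, per the labels. From the deposited counts, barcodes were kept that had 500 or more genes, 1000 or more UMIs and no more than 10% of UMIs from mitochondrial genes (3029 of 3555 control, 1967 of 2292 KO). Scrublet's own threshold marked 16 barcodes in each library (0.450% and 0.698%), so the highest-scoring 0.8% per 1000 barcodes were taken as doublets, which removed 72 and 36. Counts were scaled to 10000 per cell, and 2000 variable genes without the listed genes, 30 components and 15 neighbours went into Leiden clustering (scanpy 1.11.5, leidenalg 0.10.2, resolution 1).

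A cluster took a name with at least 3 markers of a type, each in at least 10% of its cells and 1.5-fold above the rest, with no other type leading or tied among its 10 leading genes and detected markers. This rule was tightened after the clusters were seen. UMIs were summed per class, ratios had 0.5 UMI added to each sum, and intervals are exact at 95%. The ratio step was tested on simulated counts. Named genes are Mt1, Mt2, Mt3 and Mt4, the 5 genes most like each member, up to 4 members with most UMIs of a list spoken of, Mtf1, Slc30a1 and Slc39a12. Cluster-leading genes, Aqp4, Foxj1, Kdm6b and Gm45774 were named outside this rule, as markers or checks. The members and lists were chosen with earlier results of these data known.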

Additional observations from a re-analysis of the deposited data

How the results depend on the processing

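No paired analysis was possible because each genotype has 1 library. Of 375 recomputed ratios, 292 kept their value within counting error, 70 moved and 13 were counted as turned in direction. Turning was counted only where the main interval excluded a ratio of 1. Other changes of sign are among the ratios that were kept or moved. Over all cells the log2 ratios of Mt1, Mt2 and Mt3 were 0.46, 0.76 and 0.40 in Xist-positive cells without Y-linked UMIs, 0.14, 0.43 and 0.19 with clusters weighted alike, 0.79, 1.18 and 0.78 after thinning to 2000 UMIs, 0.81, 1.15 and 0.81 with each cell weighted alike, 0.60, 0.94 and 0.48 without doublet removal, and 0.53, 0.94 and 0.40 under the stricter filter. Settings added after the data were seen changed the cells. The KO library's mix of clusters gave 0.056, 0.31 and 0.31, the control library's mix -0.014, 0.21 and 0.17, cells without the ependymal-like class 0.089, 0.52 and 0.12, and cells also without clusters 15 and 17 -0.85, -0.80 and -0.45. The cells left by these exclusions still differed in mix between the libraries.

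Clustering and filter settings changed which cells a class held. In RG/NSC-like cells Mt1, Mt2 and Mt3 were 1.05, 1.42 and 1.54 at Leiden resolution 0.5, 1.17, 1.42 and 1.82 with all genes allowed among the variable genes, and 1.12, 1.45 and 1.58 with no filter on cells. In that order the class held 336, 325 and 361 control cells and 201, 195 and 212 KO cells, against 339 and 119. Mt1 was -0.057 at resolution 2, -0.14 after thinning and -0.17 with each cell weighted alike, and Mt2 was 0.039 after thinning and 0.089 with each cell weighted alike. Mt3 was -0.036 under the stricter filter. Mt1 in GABAergic neuron-like cells was -0.056 without doublet removal and -0.72 under the stricter filter, and in astrocyte-like cells 0.15 with 4000 variable genes and 0.28 under the stricter filter. In pyramidal neuron-like cells Mt1 was 0.13 under either library's mix and 0.15 with clusters weighted alike, where Mt3 was 0.20. At 2-fold in place of 1.5-fold, 1 zinc gene in place of 7 was higher in astrocyte-like cells, 1 in place of 5 in ependymal-like cells, and 2 in place of 5 members of the STAT3 list in ependymal-like cells. Of all genes, 2.69% in astrocyte-like and 3.31% in ependymal-like cells were higher by 2-fold. With at least 50 UMIs required, 4 of 11 zinc genes were higher by 1.5-fold and 1 lower in astrocyte-like cells. In ependymal-like cells 3 of 14 were higher and 1 lower. The share of all genes at that minimum was not computed, so these counts have no background beside them. The cause of these changes was not tested beyond the mix of cells. The granule neuron-like class was lost with no filter and at resolution 0.5, and the intermediate progenitor-like class with no filter.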

Other observations

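Genes of STAT3 signalling and reactive glia, among them genes that astrocytes raise after injury, were measured in ependymal-like cells for 11 of 14 list members. Of these, 5 were at least 1.5-fold higher in the KO library and 0 lower, with a median log2 ratio of 0.56, beside 0.02 for all 10926 genes there, of which 10.5% were higher by that much. Gfap, the intermediate filament of astrocytes, was at 175 CPM in control and 333 in KO cells (log2 ratio 0.92, ratio 1.63 to 2.22). Socs3, a feedback inhibitor of this pathway, was at 67.4 and 133 CPM (0.97, 1.53 to 2.54), Stat3 at 104 and 154 CPM (0.56) and Vim at 1288 and 1448 CPM (0.17). In the same cells the log2 ratio was 0.01 for Mt1 and 0.27 for Mt2. The 17 astrocyte markers, Gfap among them, summed there to 1114 CPM in control and 1497 in KO cells. The 15 ependymal markers summed to 11811 and 9600 CPM. The part of these marker differences in the ratios was not tested. In RG/NSC-like cells, the radial glia class, 2 of 9 were higher and 0 lower (median 0.17), beside 7.78% and 9.85% of all genes there. In astrocyte-like cells 1 of 11 was higher and 3 lower (median 0.045), beside 11.1% and 10.8% of all genes. In cluster 15, 1 of 10 was higher and 2 lower (median -0.26), beside 12.7% and 12.9%. Over all cells 0 of 13 measured members passed 1.5-fold in either direction, beside 8.9% of all genes higher and 5.18% lower. No test between genotypes is possible with 1 library each.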
